A study of Mus musculus with 4 samples.

Results

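The tumour necrosis factor (TNF) family was described gene by gene in progenitor-rich marrow with and without Mtg16. Members were chosen by symbol: all genes named Tnfsf, Tnfrsf, Tnfaip or Traf followed by a digit, with Tnf, Lta and Ltb, whose probe carries a single gene symbol. The rule found 44 of 13840 genes, measured by 45 probes of 33012: 13 ligands, 17 receptors, 7 Traf genes and 7 Tnfaip genes. Of these, 25 passed the filter on dim probes and were tested, and 19 were dim. The arrays came from lineage-negative bone marrow, from which cells with surface markers of mature blood lineages had been removed on magnetic columns. Each RNA was a pool of femur and tibia marrow from 4 female mice, 8 to 12 weeks old. The wild-type mice were C57BL/6. The Mtg16 null mice had been backcrossed into C57BL/6 to generation N4, so the groups can differ in background alleles as well as in Mtg16, and the null allele itself is not described in the labels. There were 2 arrays of each genotype, 1 of each genotype in each of 2 microarray lots.

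TNF family ligands are mostly membrane-bound trimers that cluster receptors on a neighbouring or the same cell. Receptors with a death domain can assemble Tradd, Fadd and caspase-8, while many others recruit Traf adaptors directly. Both routes can activate NF-kB and MAP kinases. In bone marrow the family is known for limiting stem cell output during inflammation (Tnf and its receptors), for B cell survival (Tnfsf13b and Tnfsf13) and for osteoclast formation (Tnfsf11 and its receptor Tnfrsf11a). The Tnfaip genes are grouped by a historical name, first given for induction by TNF. Tnfaip8l1 and Tnfaip8l2 are relatives of Tnfaip8, while the other Tnfaip proteins have unrelated functions.

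Among kept members, the receptor genes Tnfrsf26 and Tnfrsf1a, together with Tnfaip8, had the smallest unadjusted p-values, and all were higher in the null arrays. Tnfrsf26 was 2.61-fold higher, Tnfrsf1a 2.50-fold and Tnfaip8 2.14-fold, each by at least 1.01 on the log2 scale in both lots. Tnfrsf12a had a larger fold of 4.19, but 1 of its wild-type arrays read at background and it was kept through its null arrays. Traf4 went the other way and was 1.81-fold lower. None of the 25 tested members passed limma at an adjusted p under 0.05, where 0.118% of the 8445 tested genes did (10 genes). At an unadjusted p under 0.05 there were 6 members higher, 24% of 25, against 9.65% of all tested genes, and 2 lower, 8%, against 6.83%. The 6 include Tnfsf15, which passed the filter through its null arrays and had to be higher. With any array left out, the log2 difference was at least 1.27 for Tnfrsf26, 1.14 for Tnfrsf1a and 0.92 for Tnfaip8. That of Traf4 ran from -1.09 to -0.62, while 14 of the 25 members turned in sign in such fits. The number of calls changed in these fits, among members and over all genes, and is not compared. With the array lot as a block in the fit, 9 members (36%) differed at an unadjusted p under 0.05, against 24.3% of all genes. Of the 9 members, 7 were higher, now with Tnfrsf12a, and 2 lower. Over all 8445 tested genes 1124 were higher and 931 lower with the block. No member passed the adjusted threshold in that fit. The median log2 difference of the 25 members was 0.019, against -0.019 for all tested genes. A log2 difference is null minus wild type throughout, and limma's test was run over all tested genes. With bulk RNA, fewer cells of a type and less RNA per cell cannot be told apart.

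Promoter sequences are shown for 4 members whose genotypes did not overlap, chosen after their values were seen, as the stretch that would be read for shared motifs: the receptors Tnfrsf1a and Tnfrsf12a, higher in the null arrays, and Traf4 and Tnfaip2, lower. They are the 250 bases before the transcription start in RefSeq (assembly GRCm38.p6), 5′ to 3′ on the gene's strand. Capitals mark matches on either strand to the GC box (GGGCGG), the E-box bound by E proteins (CANNTG) and the NF-kB consensus.
Tnfrsf1a, chr6:125349473-125349722, + strand: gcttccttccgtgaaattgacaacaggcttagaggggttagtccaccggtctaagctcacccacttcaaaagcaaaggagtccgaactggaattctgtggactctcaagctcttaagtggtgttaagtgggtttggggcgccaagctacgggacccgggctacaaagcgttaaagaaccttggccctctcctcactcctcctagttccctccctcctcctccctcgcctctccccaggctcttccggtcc
Tnfrsf12a, chr17:23677450-23677699, - strand: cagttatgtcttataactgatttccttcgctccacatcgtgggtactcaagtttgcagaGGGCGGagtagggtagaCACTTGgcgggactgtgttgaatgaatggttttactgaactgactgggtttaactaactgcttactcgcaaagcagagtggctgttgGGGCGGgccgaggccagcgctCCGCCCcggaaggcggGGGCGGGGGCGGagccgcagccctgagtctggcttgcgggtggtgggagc
Traf4, chr11:78165551-78165800, - strand: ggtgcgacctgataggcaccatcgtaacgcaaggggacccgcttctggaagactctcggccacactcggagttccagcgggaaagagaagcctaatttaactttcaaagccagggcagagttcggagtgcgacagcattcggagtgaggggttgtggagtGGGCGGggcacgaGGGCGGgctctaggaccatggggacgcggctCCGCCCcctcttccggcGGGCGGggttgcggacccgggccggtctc
Tnfaip2, chr12:111442411-111442660, + strand: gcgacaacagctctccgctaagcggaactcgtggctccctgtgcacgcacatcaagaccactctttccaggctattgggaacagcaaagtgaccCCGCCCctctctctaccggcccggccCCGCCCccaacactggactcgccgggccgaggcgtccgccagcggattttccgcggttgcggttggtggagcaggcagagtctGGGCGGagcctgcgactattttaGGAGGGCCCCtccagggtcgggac
The Tnfrsf1a window held none of these 3 motifs. Tnfrsf12a held 5 GC box matches and 1 E-box, 174 bases before the start, Traf4 held 4 GC boxes, and Tnfaip2 held 3 GC boxes with 1 NF-kB match that begins 24 bases before the start. Among all 32851 RefSeq windows of this length, 66.2% held an E-box, 32.7% a GC box and 7.25% an NF-kB match. Of the 25 tested members 22 had a promoter in the table, of which 13 held an E-box, 12 a GC box and 2 (Ltb and Tnfaip2) an NF-kB match. The PU.1 core (GAGGAA) was found in 8 of the 22 and in 23.3% of all windows, the C/EBP motif TTNNGCAA in 1 (Tnfrsf23) and 9.56%, and the GATA motif AGATAA in 0 and 9.99%. The windows of Tnfrsf1a, Tnfrsf12a, Traf4 and Tnfaip2 held none of the latter 3 motifs.

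The values are linear probe signals that the authors had already brought to a common distribution, with a median of 470.4 units on every array. Probes of 3 Y-linked genes, which female mice lack, read between 94.5 and 310.2 units and served as a gauge of background. The probe of Cbfa2t3, the gene that encodes Mtg16, was not lower in the null arrays (log2 difference 0.24, limma adjusted p = 0.702), and its place relative to the deletion is unknown, so the genotype rests on the labels. Of 8 stem and multipotent cell markers, all 7 with a probe were kept, among them Kit and Cd34. The T cell markers Cd3d, Cd3e and Cd4 and the B cell marker Pax5 were dim, but other markers of these lineages were not. Cd3g was kept, with 739 and 489 units in wild type and 522.5 and 601 in the null arrays. The dim Cd3d read 825 units in wild-type array 2 and 649 in null array 1. Among B lineage markers Cd79a, Cd79b, Ebf1 and Vpreb1 were kept. The mature B cell marker Ms4a1 was not near background in wild type, with 1444 and 1767 units against 68.0 and 143 in the null arrays. Nothing in the labels says that the 2 arrays of a genotype came from separate pools, so p-values measure only the spread between these arrays, which may be technical.

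Among ligands, 4 of 13 were kept, of which Tnfsf15 was higher at an unadjusted p under 0.05 and none lower. Tnfsf15 encodes TL1A, the ligand of the death-domain receptor Tnfrsf25. It read 269.9 and 401 units in wild-type arrays 1 and 2 and 707 and 583 in null arrays 1 and 2. Both null arrays lay above both wild-type arrays, but wild-type array 1 did not exceed the Y-linked probes. The difference was 0.96 (SE 0.28, unadjusted p = 0.0241, limma adjusted p = 0.231), with 1.39 in lot 1 and 0.54 in lot 2. Its wild-type level fell below the filter and the gene was kept through its null arrays, so a higher null value was built into its selection. Leaving out wild-type array 1 gave an unadjusted p of 0.0660, leaving out null array 1 gave 0.110, and leaving out null array 2 gave 0.0502.

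The other kept ligands were Ltb, Tnfsf13 and Tnfsf14. Ltb, the membrane partner of lymphotoxin alpha, had 7066 and 5539.5 units in wild type and 7597 and 5287 in the null arrays. The null arrays enclosed the wild-type ones (difference 0.019, SE 0.27). Tnfsf13 encodes APRIL, a survival factor of plasma cells. It read 3352 and 3819.9 units against 3250.4 and 2955, so its groups did not overlap, but the difference of -0.21 (SE 0.18, unadjusted p = 0.321) was near its standard error. Tnfsf14, which encodes LIGHT, had 829 and 341 units in wild type against 823 and 1002. Lot 1 gave a difference of -0.011 and lot 2 one of 1.56, and the low wild-type array 2 set the latter: without it the difference was 0.13.

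The remaining 9 ligands were dim, and 3 of them (Lta, Tnfsf11 and Tnfsf18) gave no value above the highest Y-linked one on any array. Tnf itself, the founding cytokine, read 264 and 251 units in wild type and 405 and 227 in the null arrays. A single array, null array 1, exceeded the Y-linked range. Tnfsf13b, which encodes the B cell survival factor BAFF, read 230.2 and 232 units in wild type, then 1016 in null array 1 and 268 in null array 2. Its within-lot differences were 2.14 and 0.20, so that null array 1 alone carried the difference. Tnfsf10, which encodes the death ligand TRAIL, read 414 and 241 units in wild type and 158 and 181 in the null arrays, with both null values and wild-type array 2 inside the Y-linked range. Tnfsf4, Tnfsf8 and Tnfsf9, costimulatory ligands of T cells, had overlapping groups, with each gene's values spread between 133 and 626 units. Each of these 9 had at least 1 array that did not exceed the Y-linked probes.

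Receptors were the largest group, with 11 of 17 kept. At an unadjusted p under 0.05 2 of the 11 were higher, Tnfrsf1a and Tnfrsf26, and 0 lower, against 9.65% and 6.83% of all tested genes. Tnfrsf1a is the main signalling receptor for soluble TNF and carries a death domain. Its probe read 18642 and 23996 units in wild-type arrays 1 and 2, and 50274 and 55539.6 in null arrays 1 and 2. The lower null array was more than 2-fold above the higher wild-type array, and the spread within a genotype was small beside that gap. The means were 21319 ± 3786 and 52907 ± 3723 units (SD, n = 2), a log2 difference of 1.32 (SE 0.21, unadjusted p = 0.00319, limma adjusted p = 0.105). Within lots it was 1.43 and 1.21, and with any array left out it was at least 1.14.

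Tnfrsf26 lies in a mouse cluster with Tnfrsf22 and Tnfrsf23, whose products bind TRAIL and act as decoy receptors. Tnfrsf26 read 2621 and 3045 units in wild type and 7582 and 7145 in the null arrays, again with no overlap and little spread. The means were 2833 ± 299.9 and 7363 ± 309 units (SD, n = 2), a difference of 1.38 (SE 0.18, unadjusted p = 0.00150, limma adjusted p = 0.0975). Its neighbours differed from it in pattern. Tnfrsf22 read 351 and 1045 units in wild type and 734 and 1323 in the null arrays, so each group had a low array in lot 1 and the groups overlapped (difference 0.70, SE 0.65, unadjusted p = 0.336). Tnfrsf23 read 473 and 668 units against 553 and 473, with a difference of -0.14 (SE 0.25). In the gene order of RefSeq the 3 genes follow each other on chromosome 7, and Cars on the side of Tnfrsf26 and Osbpl5 beyond Tnfrsf23 had differences of -0.33 and 0.35, neither at an unadjusted p under 0.05. Whether Tnfrsf26 differs from these neighbours was not tested.

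Tnfrsf12a encodes Fn14, the small receptor for TWEAK, which is induced by growth factors and signals through Trafs. It read 195 and 871 units in wild type and 1321 and 2261 in the null arrays. Both null arrays were above both wild-type arrays, and in each genotype the lot 2 array was the higher. The difference was 2.07 (SE 0.82, unadjusted p = 0.0628, limma adjusted p = 0.342), with 2.76 in lot 1 and 1.38 in lot 2, and the lot as a block gave an unadjusted p of 0.0206. Wild-type array 1 lay in the Y-linked range, and the wild-type level was below the filter, so the gene was kept through its null arrays and the size is not resolved from background. Leaving out wild-type array 1 gave a difference of 0.99, and leaving out wild-type array 2 gave 3.15.

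**Figure D1:**
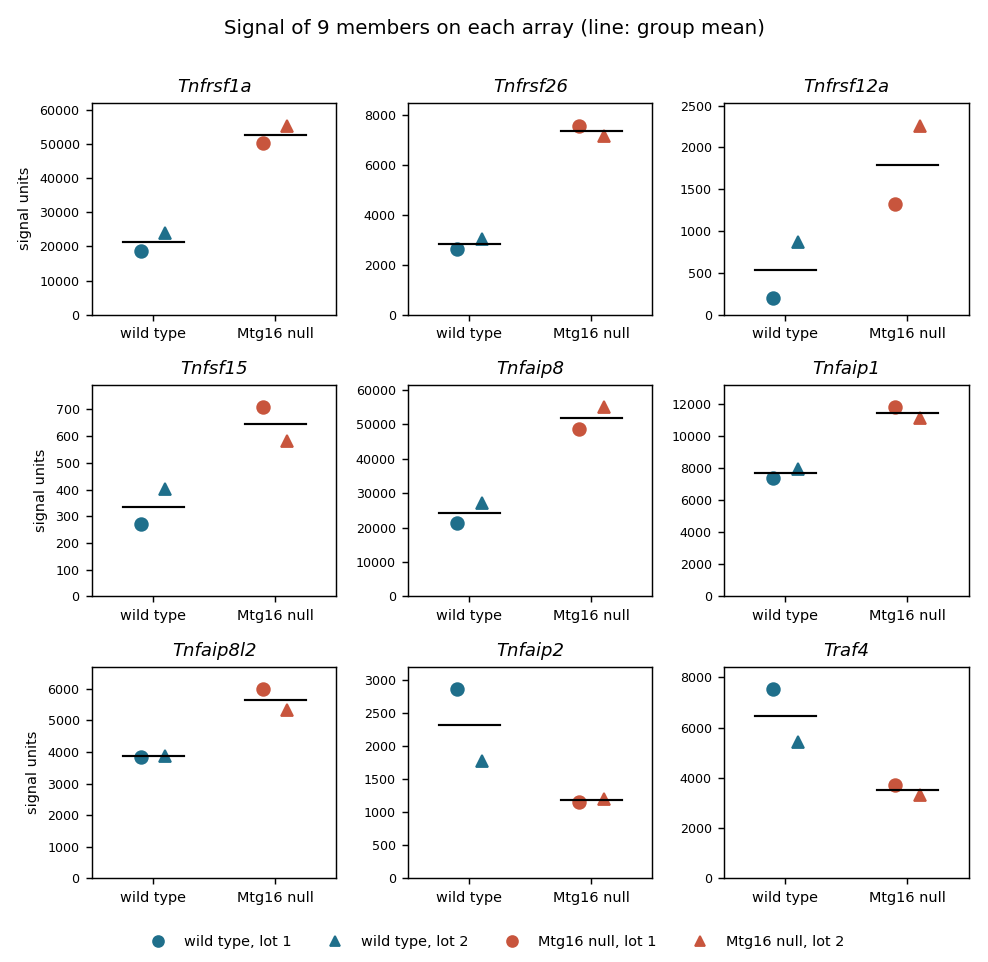
Linear signal (y axis, signal units, each panel from 0) of 9 members on the 4 arrays, by genotype; circles are lot 1, triangles lot 2, and a line marks the mean of 2 arrays. The panels show the members with an unadjusted limma p under 0.05, and Tnfrsf12a, so they were chosen by their values. None has overlapping genotypes, whereas 15 of the 25 kept members do. Tnfrsf1a goes from 18642 and 23996 units in wild type to 50274 and 55539.6 in the null arrays, while Tnfaip2 and Traf4 are lower in the null arrays. Tnfsf15 and Tnfrsf12a were kept through their null arrays.

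The other 8 kept receptors, Tnfrsf22 and Tnfrsf23 among them, had overlapping groups, and the array lots disagreed in sign for 7 of them. The BAFF and APRIL receptors of B cells and plasma cells were of this kind. Tnfrsf13c (the BAFF receptor) read 824 and 404 units in wild type and 335 and 568 in the null arrays, and the lots gave -1.30 and 0.49. Tnfrsf17 (BCMA) read 586 and 2134 units against 683 and 708. The high wild-type array 2 alone set its mean difference of -0.68 (SE 0.67), which was 0.25 without that array. Tnfrsf25, the receptor of Tnfsf15, read 2629 and 837 units in wild type and 1116 and 1248 in the null arrays, with both null values between the wild-type ones. Tnfrsf21, a death-domain receptor, read 600.0 and 563 units against 495 and 1234, and null array 2 stood apart (difference 0.43, and -0.23 without it). Tnfrsf18 (GITR) was steady, with 1186 and 1104 units against 1095 and 1301 and a difference of 0.061 (SE 0.19). Tnfrsf9, a costimulatory receptor of T cells, read 564 and 449 units against 415 and 549, a difference of -0.076 (SE 0.25).

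Dim receptors were Tnfrsf4, Tnfrsf8, Tnfrsf11a, Tnfrsf11b, Tnfrsf13b and Tnfrsf19, with values between 119 and 435 units. Tnfrsf11a encodes RANK and Tnfrsf11b its soluble decoy osteoprotegerin, the receptors of the osteoclast factor Tnfsf11. Tnfrsf11a read 168 and 358 units in wild type and 313 and 175 in the null arrays, and Tnfrsf11b 242 and 158 against 142 and 262. In both genes the lots ran in opposite directions. Tnfrsf8 (CD30) was higher in the null array of each lot, by 0.82 and 0.74, but 3 of its 4 values lay within the Y-linked range.

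Of the 7 genes named Traf, 6 were kept. Traf4 was lower at an unadjusted p under 0.05 and none was higher. Traf4 is an adaptor with known roles in development and cell migration. It read 7518 and 5426 units in wild-type arrays 1 and 2 and 3729 and 3331 in null arrays 1 and 2. Both null arrays were below both wild-type arrays. The means were 6472 ± 1479 and 3530.1 ± 282 units (SD, n = 2), and the difference was -0.86 (SE 0.24, unadjusted p = 0.0220, limma adjusted p = 0.223), with -1.01 and -0.70 within the lots. Leaving out wild-type array 1 gave an unadjusted p of 0.0666, leaving out null array 1 gave 0.0686, and leaving out null array 2 gave 0.113.

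The other kept Traf genes had overlapping genotypes. Traf2, which binds many TNF receptors directly, read 12329.9 and 8555 units in wild type and 10268 and 8858 in the null arrays (difference -0.11, SE 0.26). Traf6, the adaptor shared with Toll-like receptors, read 7660.3 and 7971 units against 7736 and 8384, a difference of 0.044 (SE 0.17). A second, dim Traf6 probe read 167 and 164 units against 213 and 433, and was not used. Traf5, which acts beside Traf2 at several receptors, read 3388 and 2836 units against 3078 and 2865 (difference -0.062, SE 0.19). Traf7, an atypical member with WD40 repeats, read 21986 and 17026 units against 19320.0 and 17884 (difference -0.058, SE 0.21). Traf1, itself an NF-kB target, read 542 and 606 units in wild type, then 239 in null array 1 and 793 in null array 2. Its null array 1 lay in the Y-linked range, so the size of its difference is not resolved from background. The null arrays enclosed the wild-type ones, and the difference went from -0.40 to 0.47 without null array 1. The dim Traf3ip2, the adaptor Act1 of interleukin-17 receptors, read 291 and 314 units against 263 and 740.3.

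**Figure D2:**
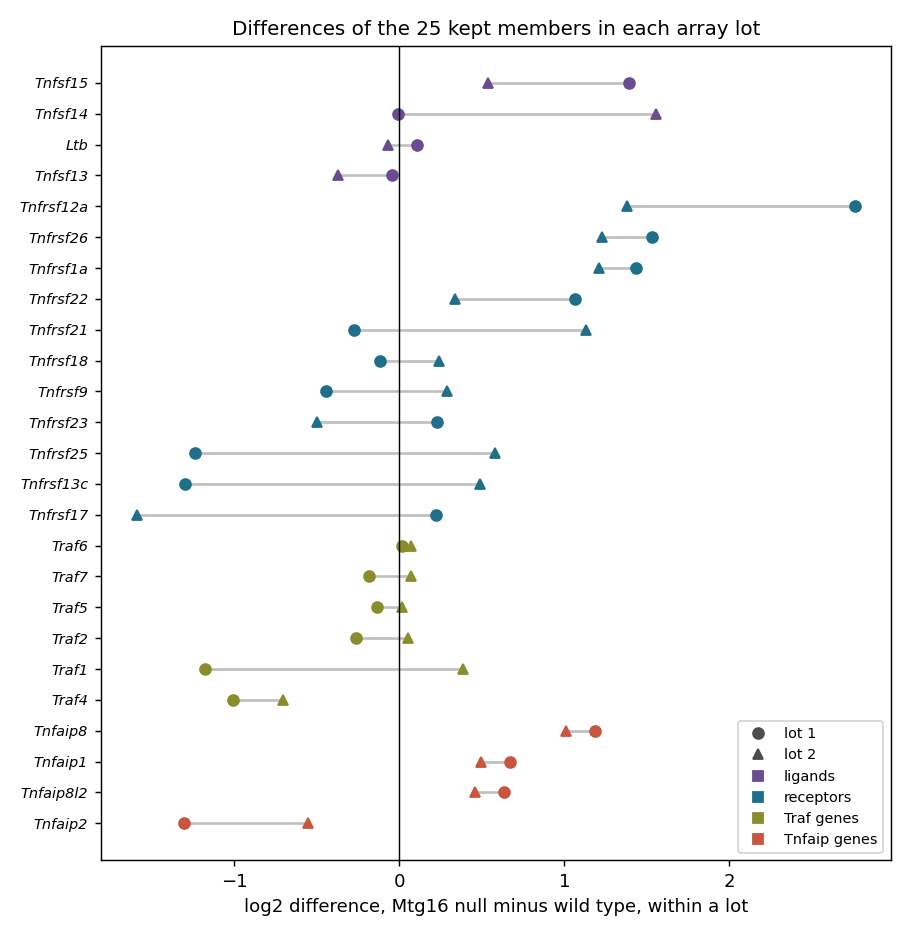
Log2 difference, null minus wild type, within lot 1 (circles) and lot 2 (triangles) for each of the 25 kept members, coloured by role; a grey line joins the lots. Tnfrsf26, Tnfrsf1a and Tnfaip8 have both points above 1, Traf4 and Tnfaip2 both below 0, and 13 members have points on both sides of 0.

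All 4 kept Tnfaip genes had genotypes that did not overlap, with 3 higher and 1 lower at an unadjusted p under 0.05. Over all tested genes 22.6% did not overlap with the null arrays higher and 23.1% with them lower, and 9.65% and 6.83% had such a p. Tnfaip8 encodes a lipid-binding protein known as a brake on apoptosis. It read 21429 and 27284 units in wild type and 48756 and 54944 in the null arrays. The means were 24356 ± 4139.9 and 51849.8 ± 4375 units (SD, n = 2), a difference of 1.10 (SE 0.21, unadjusted p = 0.00627, limma adjusted p = 0.128). Within lots it was 1.19 and 1.01, and 0.92 to 1.27 with any array left out. Its relative Tnfaip8l2, which encodes the immune regulator TIPE2, read 3848 and 3871 units against 5982 and 5325. The wild-type arrays were nearly equal, and the difference was 0.55 (SE 0.17, unadjusted p = 0.0336, limma adjusted p = 0.263).

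Tnfaip1 encodes an adaptor of a cullin ubiquitin ligase. It read 7413 and 7920.4 units in wild type and 11782 and 11139 in the null arrays, a difference of 0.58 (SE 0.17, unadjusted p = 0.0260, limma adjusted p = 0.237). The unadjusted p of Tnfaip1 and of Tnfaip8l2 exceeded 0.05 whichever array was left out, with ranges of 0.0592 to 0.188 and 0.0901 to 0.243. Tnfaip2 encodes M-Sec, a protein of membrane nanotubes, and was lower. It read 2855 and 1774 units in wild type and 1155 and 1206 in the null arrays. The null arrays were nearly equal, and the difference was -0.93 (SE 0.29, unadjusted p = 0.0319, limma adjusted p = 0.257). Wild-type array 1 set its size, since leaving it out gave a difference of -0.59 (unadjusted p = 0.0695). Leaving out null array 1 gave an unadjusted p of 0.105, and null array 2 one of 0.0881.

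Among dim Tnfaip genes, Tnfaip3 encodes A20, the deubiquitinase that ends NF-kB signalling. It read 231 and 174 units in wild type and 481 and 295 in the null arrays, and 1 array exceeded the Y-linked range. Tnfaip8l1, a further relative of Tnfaip8, was lower in both null arrays, with 478 and 485 units against 316 and 369. It was the 1 dim member of 19 with all 4 arrays above the Y-linked range. Tnfaip6, which encodes a hyaluronan-binding protein, stayed between 99.1 and 216 units.

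**Figure D3:**
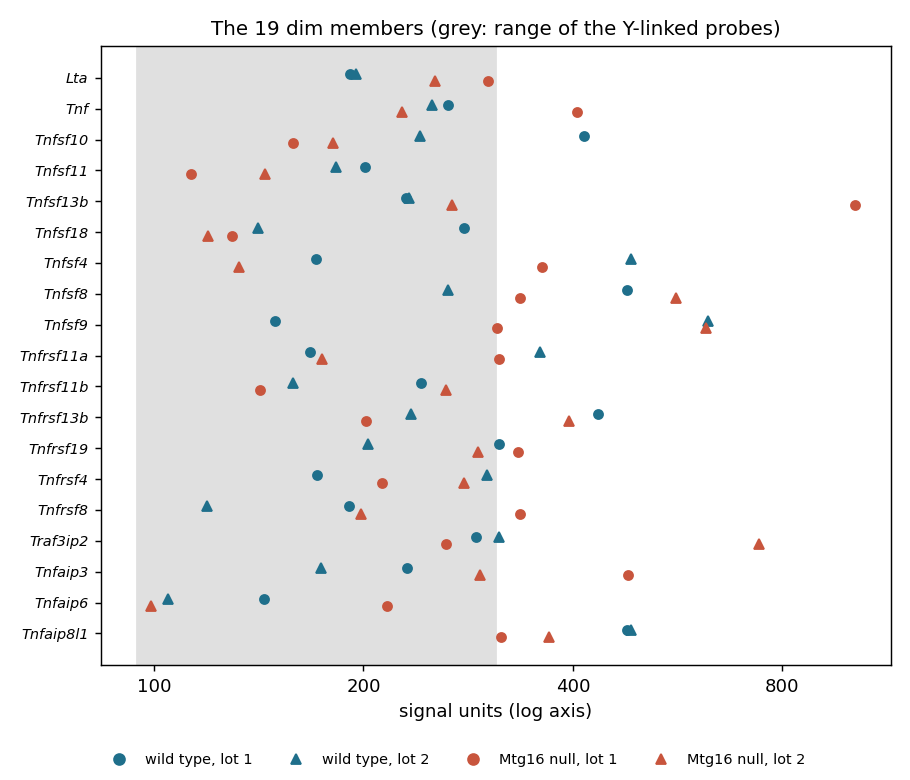
Signal (x axis, signal units, log axis) of the 19 dim members on the 4 arrays; symbols show genotype and lot, and the grey band is the range of the Y-linked probes, 94.5 to 310.2 units. Of the 19 members, 6 have every value at or below the top of the band, and Tnfaip8l1 has all 4 above it.

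How far the genotypes separated can be read against all genes. The genotypes did not overlap, with the null arrays higher, for 7 of 25 kept members (28.0%) against 22.6% of all tested genes, and with the null arrays lower for 3 (12.0%) against 23.1%. At least 1.5-fold in each lot, 4 members were higher (Tnfrsf26, Tnfrsf1a, Tnfaip8 and Tnfrsf12a) against 8.57% of genes, and 1 was lower (Traf4) against 5.85%. Just outside that bound lay Tnfaip2, at -0.56 in its weaker lot, and Tnfsf15 at 0.54. The lots differed in sign for 13 members (52.0%), against 29.4% of all tested genes. The median gap between the lots' differences was 0.35 for members and 0.24 for all genes. Of the 13 members with lots of opposite sign, 7 were receptors. Among the 25 kept members, Tnfsf15 and Tnfrsf12a were kept through their null arrays alone. Of the 19 dim members, 4 were higher and 4 lower without overlap, and 11 overlapped. The share over all dim genes was not taken, so these counts are no result about the members. Without the filter on dim probes none of these 19 had an unadjusted limma p under 0.05.

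Genes of the pathway that carry other names were read from 6 lists with 61 genes, of which 51 had a probe and 36 were kept. By limma 0 had an adjusted p under 0.05, while 4 of 36 were higher and 2 lower at an unadjusted p under 0.05. These shares are near those of all tested genes, 9.65% and 6.83%, so the values below describe single genes and are no result about the pathway. With the array lot as a block, Tnip1 (unadjusted p = 0.0222, higher) and Il1b (unadjusted p = 0.0148, lower) joined them. The 4 ligands of the family with other symbols (Fasl, Cd40lg, Cd70 and Eda) were all dim. Of the receptors with other symbols, 4 of 8 were kept and Ltbr, the lymphotoxin beta receptor, was higher. Ltbr read 599 and 538 units in wild type and 1531 and 934 in the null arrays. The difference was 1.07 (SE 0.30, unadjusted p = 0.0229, limma adjusted p = 0.226), and the p became 0.0705 when wild-type array 2 was left out and 0.103 when null array 1 was. Ltbr lies 2 protein-coding genes from Tnfrsf1a in the RefSeq order, with Scnn1a between them, whose probe was dim. On the other side of Tnfrsf1a lie Plekhg6, whose probe was dim, then Cd9 with a difference of 0.51 (unadjusted p = 0.0619) and Vwf with one of -0.88 (unadjusted p = 0.0244).

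Of 21 death and adaptor signalling genes, 16 were kept, of which 2 were higher and 0 lower at an unadjusted p under 0.05, with a median difference of 0.094. Tradd, Ripk1, Otulin and Sppl2a had no probe with a single symbol, and Xiap was dim. Ikbke, an IkB-kinase-related kinase of innate signalling, read 2580 and 2072 units in wild type and 5253 and 5548 in the null arrays. It was 2.34-fold higher (difference 1.22, SE 0.20, unadjusted p = 0.00331, limma adjusted p = 0.106), with 1.03 and 1.42 within the lots. Ripk3, the kinase of necroptosis, read 30067 and 24091 units against 52745 and 41523. Its difference was 0.80 (SE 0.23, unadjusted p = 0.0253, limma adjusted p = 0.235), 0.81 and 0.79 within the lots. Leaving out wild-type array 2 gave an unadjusted p of 0.0887, null array 1 one of 0.157 and null array 2 one of 0.0514. The death-domain adaptor Fadd had a difference of 0.13, Casp8 one of -0.62 and its inhibitor Cflar one of 0.45, none at an unadjusted p under 0.05.

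Of 12 NF-kB kinases and inhibitors, 7 were kept, with 1 higher, 1 lower and a median of -0.25. Chuk, Ikbkb and Nfkbia had no probe with a single symbol, and Map3k14 and Tab2 were dim. Bcl3, an atypical IkB protein, had a difference of 0.66 (SE 0.19, unadjusted p = 0.0259, limma adjusted p = 0.237). Tab3, an adaptor of the kinase Map3k7, had one of -0.63 (SE 0.20, unadjusted p = 0.0340, limma adjusted p = 0.263). Of 5 NF-kB subunits 3 were kept, while Nfkb1 had no probe with a single symbol and Rel was dim. Rela, the p65 subunit, read 11519 and 9365 units in wild type and 7059 and 6399 in the null arrays, a difference of -0.63 (SE 0.20, unadjusted p = 0.0341, limma adjusted p = 0.263). Relb and Nfkb2, of the noncanonical arm, had differences of -0.022 and -0.053. Of 16 textbook NF-kB target genes, 10 were kept, 1 (Bcl3, listed above) was higher and 0 lower, and the median was 0.055. With any array left out the unadjusted p of Bcl3 ran from 0.0553 to 0.198, that of Tab3 from 0.0405 to 0.209 and that of Rela from 0.0351 to 0.195.

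**Figure D4:**
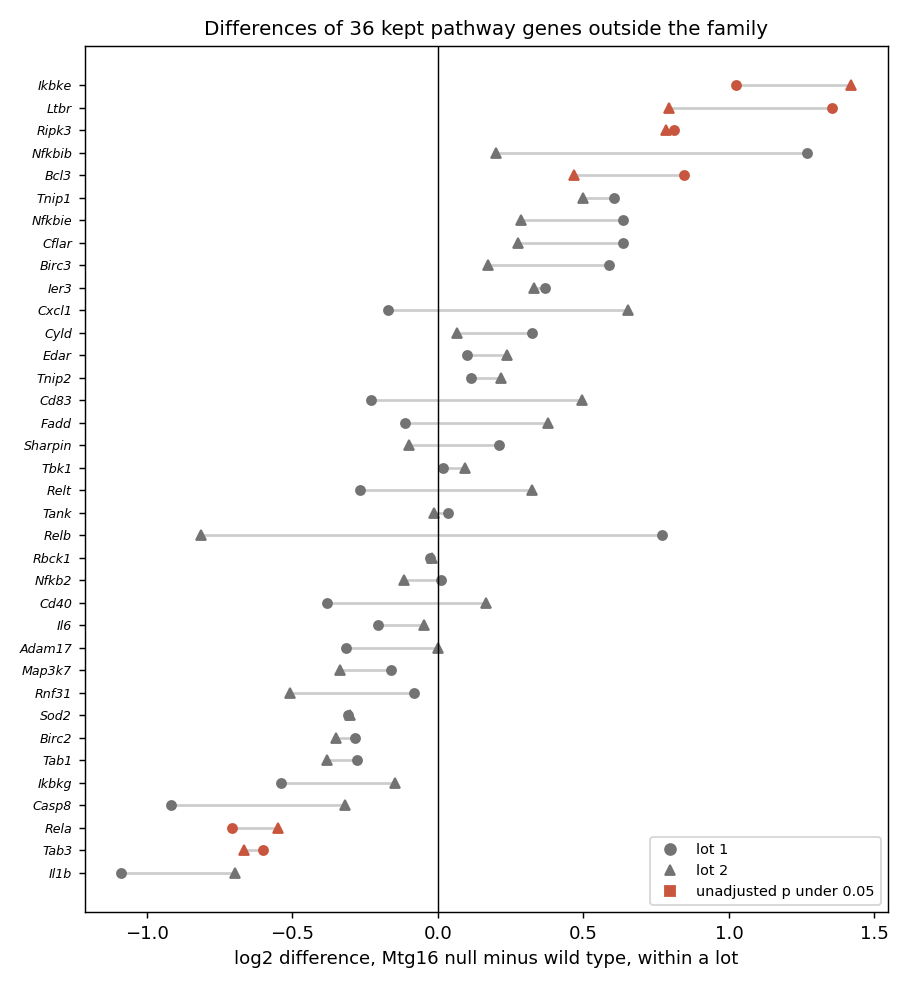
Log2 difference, null minus wild type, within lot 1 (circles) and lot 2 (triangles) for the 36 kept pathway genes outside the family, ordered by their mean difference; red marks an unadjusted p under 0.05. Ikbke, Ltbr, Ripk3 and Bcl3 are red above 0 and Rela and Tab3 red below 0, while Relb has points on both sides.

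Markers of blood cell types moved with genotype in the same arrays. Early granulocyte markers were higher for 6 of 7 at an unadjusted p under 0.05, with summed signals of 1602691 to 1689228 units in wild type and 3460852 to 4112756 in the null arrays. Monocyte and macrophage markers were higher for 4 of 5, with sums of 41900.4 to 48019 and 89206 to 94618 units. Late neutrophil markers were lower for 10 of 10, 6 of them at an adjusted p under 0.05, with sums of 1335943 to 1451276 units in wild type and 144275 to 154609 in the null arrays. Erythroid markers were lower for 5 of 7, and megakaryocyte and platelet markers higher for 4 of 5 and lower for 1. B lineage markers were higher for 2 of 4 kept, Ebf1 and Vpreb1, while Ms4a1, left out by the filter on its mean, was lower in the null arrays as given above. Of T and natural killer cell markers 2 of 5 kept were higher, Nkg7 and Klrb1c. Cd3g was kept with a difference of -0.10, while Cd3d, Cd3e and Cd4 were dim. Of stem and multipotent cell markers 2 of 7 were higher (Cd34 and Slamf1), of stromal and endothelial markers 2 of 5 were higher and 1 lower, of mast cell, basophil and eosinophil markers 2 of 6 were higher and 2 lower, and of the 4 kept dendritic cell and 4 kept plasma cell markers 0 differed at that level. With the array lot as a block, 2 plasma cell markers (Sdc1 and Xbp1) were higher at that level, 4 of the mast cell, basophil and eosinophil markers and 6 of the erythroid ones were lower, and 3 of the B lineage and 3 of the stromal and endothelial ones were higher. Tnfrsf1a, Tnfaip8, Tnfaip8l2, Tnfrsf26 and Tnfaip1, all higher, and Traf4 and Tnfaip2, both lower, differed in the same arrays as these lists. The part of cell composition in their differences, and in those of the other members, was not tested.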

How the data were processed

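Pooled marrow RNA was hybridised to 4 single-colour arrays, digoxigenin-labelled per the labels' protocols. The deposited table holds linear intensity, 1 value a probe and array. The authors' normalization is read from the values: once sorted, the arrays differ by at most 0.286%, as after quantile normalization. How background was corrected is not given in the labels. Probes were named from the platform annotation: 14411 had 1 symbol, 247 several and 18354 none. RefSeq changed 0 symbols of the 14402 it matched.

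Signals under the 1st percentile (75.8 units) were raised to it before log2. The 50% of probes with the higher mean log2 signal were kept (16506 probes, above 416.9 units), with the probe of highest mean signal for each gene, giving 8445 genes. A dim member has no kept probe. Null minus wild type was fitted with limma 3.58.1 in R 4.3.3 (lmFit, eBayes) on all 4 arrays with genotype only, and p-values were adjusted by Benjamini-Hochberg over the 8445 genes (threshold 0.05). An exact permutation test of a single gene cannot go below p = 0.333 with 2 arrays against 2. The series text says that the replicate number marks the array lot, so the numbers pair the arrays. Deviations of same-lot arrays from their group means correlated at 0.50 over genes. Promoter windows were searched on both strands, and matches of different motifs may overlap; the motifs were chosen after the values were seen. Plots used matplotlib 3.10.9 (Python 3.11.15).

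Named in full are kept members with at least 1.5-fold (0.58 in log2) in the same direction in each lot, the 10 brightest kept members with their levels, Cbfa2t3, and pathway genes at an unadjusted p under 0.05. The other members are described so that each is accounted for, by choices made after their values were seen. Members and lists were chosen with earlier results of these data known. Alternatives were the lot as a block, cyclic loess, other filters, a higher floor, a variance trend, averaged probes and leaving out each array.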

Additional observations from a re-analysis of the deposited data

How the results depend on the processing

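Of the 25 members, 0 passed over all genes with limma in the main setting (8 at an unadjusted p under 0.05), and likewise with the replicate block, cyclic loess, no filter, a floor at the 10th percentile, averaged probes or any array left out (0 to 0). With the brightest 25% of probes, which kept 10 members, and with a variance trend, 3 passed: Tnfrsf26 (adjusted p = 0.0195 and 0.0286), Tnfrsf1a (0.0249 and 0.0270) and Tnfaip8 (0.0371 and 0.0389). Ikbke passed in these settings too (0.0251 and 0.0488). Over all genes these settings called 291 of 4967 and 295 of 8445 genes. The main setting called 10 of 8445, and 0 were called without the filter or with the replicate block. The replicate block gave 7 members higher and 2 lower at an unadjusted p under 0.05. It added Tnfrsf12a and changed no other call of a member. Over all 8445 tested genes the block gave 1124 higher and 931 lower, against 815 and 577 in the main setting. The calls thus rose over all genes too, and the share of members lower, 8%, was below that of all genes with the block. Among fits with an array left out, members higher at that level ran from 3 to 6 and members lower from 0 to 3. Without null array 2 there were 3 higher, and without wild-type array 1, null array 1 and null array 2 there were 1, 0 and 1 lower. The brightest 25% gave 5 higher and 1 lower of its 10 members, and a median of 0.30, against 0.019 in the main setting. Over all genes it called 1022 of 4967 at an unadjusted p under 0.05, in either direction, against 1392 of 8445 in the main setting. Its median over all genes was -0.026. Each fit with an array left out has 3 arrays, and the lone array of a genotype is assumed to vary like those of the other. The calls over all genes changed in these fits too. The member counts with an array left out are therefore no result about the members.

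The sign of 14 members turned when an array was left out, and none turned under any other setting. Their log2 differences then ran from -0.24 to 0.28 for Ltb, -0.92 to 0.11 for Tnfrsf13c, -1.62 to 0.25 for Tnfrsf17, -0.064 to 0.19 for Tnfrsf18, -0.23 to 1.09 for Tnfrsf21, -0.084 to 1.49 for Tnfrsf22, -0.39 to 0.11 for Tnfrsf23, -1.16 to 0.50 for Tnfrsf25, -0.28 to 0.12 for Tnfrsf9, -1.26 to 0.47 for Traf1, -0.37 to 0.16 for Traf2, -0.19 to 0.066 for Traf5, -0.015 to 0.10 for Traf6 and -0.24 to 0.13 for Traf7. The other 11 kept members held their sign in every setting that kept them. The number of arrays limits the precision, and values no higher than the Y-linked probes give no size of difference.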
